A study of Mus musculus with 12 samples.

Results

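The comparison described here is the recovery of hematopoietic stem cells (HSCs) from 5-fluorouracil (5-FU) in mice kept on antibiotics. Its members are the 6 libraries, of 12 in the series, that the labels call ABX 5-FU (n = 3) and ABX (n = 3), and each difference is antibiotics 5-FU minus antibiotics. The mice were C57BL/6 and 12 weeks old, the HSCs were sorted from their bone marrow, and RNA of 2000 cells went into each library. Both groups had vancomycin, neomycin, ampicillin and metronidazole in their drinking water for 4 to 6 weeks, so the group without 5-FU is no untreated group. The 5-FU group also received 200 mg/kg of 5-FU into a vein and was taken on day 12. The 6 libraries of mice without antibiotics, 3 control and 3 control 5-FU, share the model and serve below for the change after 5-FU without antibiotics. Nothing in the labels ties a library to an animal of its own. The p-values therefore measure the spread between these libraries alone, which may be technical. Sort gates are not named in the sources used here, and gut bacteria were not analysed here.

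As background, 5-FU is an antimetabolite that stops thymidylate synthesis and kills dividing cells. The loss of marrow progenitors drives resting HSCs into division, and the pool later returns to rest. A dividing cell loads MCM helicases on replication origins, copies its DNA and then builds a spindle, and transcription factors of the E2F family and the DREAM complex control these genes in groups. HSCs also read inflammation through receptors that act on STAT factors, NF-kB and interferon regulatory factors, with SOCS proteins and NF-kB inhibitors as feedback. Gut bacteria are one source of such signals.

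Expression is given in RPKM, reads per kilobase of gene scaled by library depth, so levels can be compared between genes per length. Depth, as estimated from how far apart low values lie, was 28.7 to 37.2 M reads with antibiotics and 31.2 to 38.0 M after 5-FU. The estimate is rough, since 52.2 to 56.5% of the low values in these 6 libraries came out as whole reads within 2%. The summed RPKM was 165856 to 176924 with antibiotics and 149886 to 157119 after 5-FU, without overlap. Pseudogene features made up 44.3 to 46.0% of it with antibiotics and 42.4 to 42.9% after 5-FU. They count toward the total by which libraries are rescaled below. The first principal component of the 6 libraries held 63.3% of the variance and split the groups. Pearson correlations across genes were 0.985 to 0.990 within groups and 0.958 to 0.974 between them. No i7 index was used both with and without 5-FU, so index and 5-FU cannot be told apart. Antibiotics 5-FU replicate 1 stood apart in stromal genes: Cxcl12, the chemokine that holds HSCs in the niche, was at 23.4, 0.0393 and 0.249 RPKM after 5-FU and at 0.522, 0.839 and 0.312 without it.

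Of 8553 genes tested, 2586 (30.2%) were called at an adjusted p under 0.05 (limma, Benjamini-Hochberg), 1175 (13.7%) higher and 1411 (16.5%) lower after 5-FU. The median log2 change over all genes was -0.014. Changes of 2-fold or more were seen in 82 of the higher and 71 of the lower genes. The groups did not overlap in 49.9% of the genes. The balance of directions rested on the scale: with each library scaled to the same total (TPM), the median over all genes moved to 0.15, and 2137 genes were higher and 746 lower. Without antibiotics replicate 2 the calls numbered 1624, and without antibiotics 5-FU replicate 2 they numbered 1651.

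**Figure D1:**
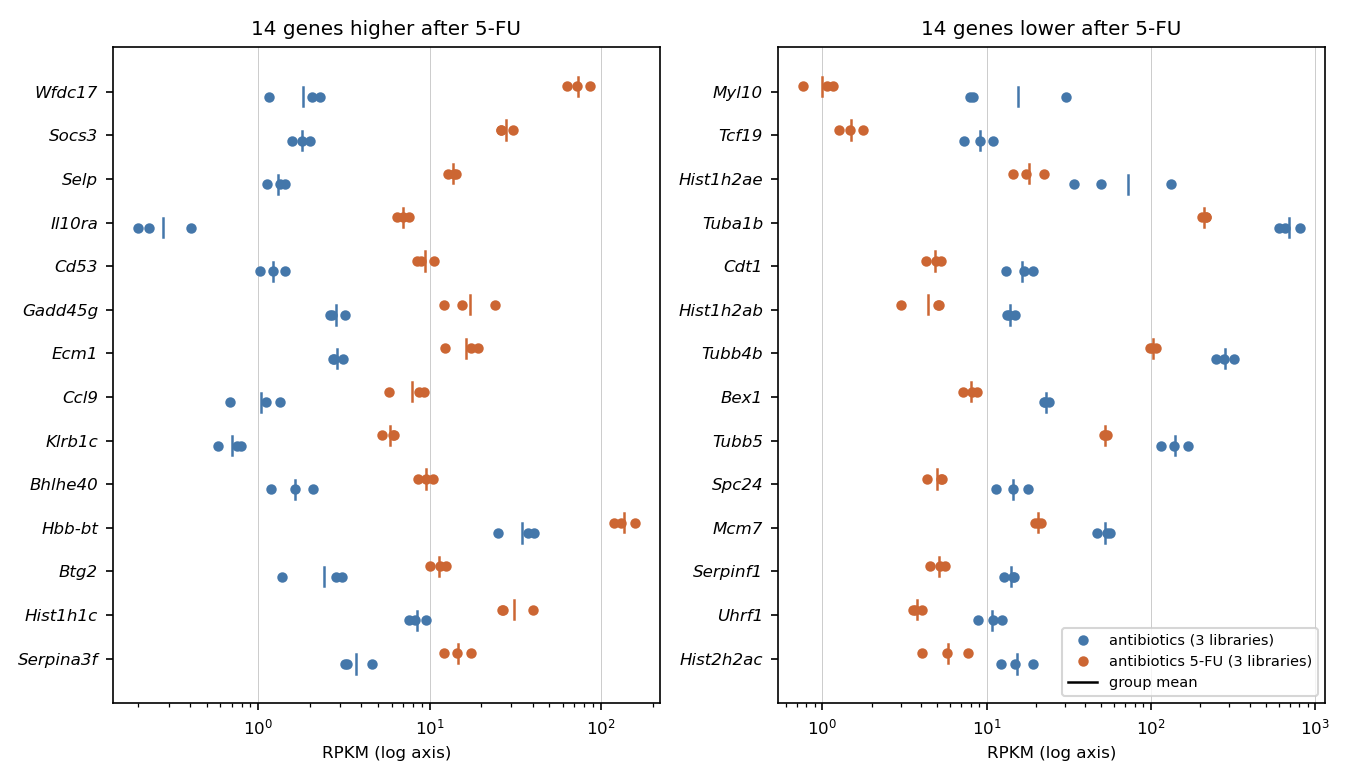
RPKM of the 14 called genes of largest change in each direction (log axis), with 3 antibiotics libraries in blue, 3 antibiotics 5-FU libraries in orange and the group mean as a bar. By the rule that chose them the groups do not overlap in any of these genes. Wfdc17 stands farthest apart, at 2.30 RPKM or less without and at 63.3 RPKM or more with 5-FU.

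Wfdc17 (chromosome 11, 83703991 to 83706268, mm10), a secreted protein of macrophages and other cells with the fold of whey acidic protein, had the largest change. It was at 1.16, 2.30 and 2.06 RPKM with antibiotics alone and 63.3, 72.6 and 85.9 after 5-FU (log2 change 4.74 ± 0.24, adjusted p = 1.71e-06, where each change is of log2(RPKM + 1), ± its SE). The gap between the groups was far wider than the spread within either. Socs3 (chromosome 11, 117966079 to 117970047), the feedback inhibitor of cytokine receptors that act through STAT3, was at 1.801, 1.57 and 2.004 RPKM with antibiotics alone and 26.2, 26.2 and 30.8 after 5-FU (log2 change 3.36 ± 0.17, adjusted p = 1.71e-06). Selp (chromosome 1, 164115264 to 164150026), which encodes the adhesion molecule P-selectin, was at 1.12, 1.43 and 1.34 RPKM with antibiotics alone and 12.9, 13.9 and 14.2 after 5-FU (log2 change 2.68 ± 0.17, adjusted p = 1.17e-05). The signalling chain of the interleukin 10 receptor, Il10ra (chromosome 9, 45253837 to 45269149), was at 0.198, 0.404 and 0.232 RPKM with antibiotics alone and 6.48, 6.96 and 7.54 after 5-FU (log2 change 2.65 ± 0.18, adjusted p = 1.32e-05). Without 5-FU it lay under 1 RPKM in all 3 libraries, so the added value of 1 before the log understates its change. Cd53 (chromosome 3, 106759921 to 106790149), a tetraspanin of leukocytes, was at 1.03, 1.43 and 1.22 RPKM with antibiotics alone and 8.45, 8.91 and 10.7 after 5-FU (log2 change 2.22 ± 0.17, adjusted p = 2.27e-05).

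The other 9 genes of largest rise had lower levels or smaller changes. Gadd45g, a stress gene that restrains the cell cycle, was at 2.68, 3.21 and 2.63 RPKM with antibiotics alone and 15.5, 12.1 and 24.1 after 5-FU (log2 change 2.20 ± 0.21, adjusted p = 9.82e-05). Ecm1, a secreted matrix protein, was at 3.11, 2.74 and 2.76 RPKM with antibiotics alone and 17.6, 12.3 and 19.2 after 5-FU (log2 change 2.14 ± 0.24, adjusted p = 2.22e-04), and the chemokine gene Ccl9 at 0.682, 1.11 and 1.34 RPKM with antibiotics alone and 5.76, 8.68 and 9.22 after 5-FU (log2 change 2.11 ± 0.27, adjusted p = 4.46e-04). These 3 genes varied more after 5-FU than Socs3 or Selp, with replicate 2 lowest for Gadd45g and Ecm1 and replicate 1 for Ccl9. Klrb1c, best known as the NK1.1 antigen of natural killer cells, was at 0.579, 0.790 and 0.753 RPKM with antibiotics alone and 6.09, 5.26 and 6.20 after 5-FU (log2 change 2.004 ± 0.14, adjusted p = 1.49e-05). The killer cell genes Klrd1, Ncr1, Gzma, Il2rb, Tbx21 and Eomes, named after their values were seen, were at 0 in all 6 libraries. Of the same marker list, Nkg7 was at 23.4 to 31.4 RPKM and Prf1 at 0 to 0.0603 RPKM. Bhlhe40, a transcriptional repressor, was at 1.19, 1.65 and 2.10 RPKM with antibiotics alone and 10.4, 8.53 and 9.52 after 5-FU (log2 change 1.999 ± 0.24, adjusted p = 3.39e-04). Serpina3f, a serine protease inhibitor, was at 3.30, 3.22 and 4.59 RPKM with antibiotics alone and 14.5, 17.4 and 12.2 after 5-FU (log2 change 1.74 ± 0.22, adjusted p = 4.69e-04). Btg2, Hist1h1c and Hbb-bt are described with their groups below.

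Among the genes of largest fall, Myl10 (chromosome 5, 136693146 to 136701094), a myosin light chain, was at 8.32, 7.92 and 30.4 RPKM with antibiotics alone and 0.761, 1.17 and 1.07 after 5-FU (log2 change -2.79 ± 0.45, adjusted p = 0.00133). The antibiotics libraries disagreed by over 3-fold, with replicate 3 high, yet all 3 lay above the libraries after 5-FU. Bex1, an adaptor protein gene on the X chromosome, was at 22.8, 22.5 and 24.1 RPKM with antibiotics alone and 8.71, 7.23 and 8.11 after 5-FU (log2 change -1.42 ± 0.13, adjusted p = 8.66e-05). Serpinf1, which encodes the secreted factor PEDF, was at 12.9, 14.5 and 14.8 RPKM with antibiotics alone and 5.18, 5.61 and 4.55 after 5-FU (log2 change -1.30 ± 0.10, adjusted p = 2.18e-05). Spc24, a kinetochore subunit, was at 14.5, 17.8 and 11.4 RPKM with antibiotics alone and 4.36, 5.28 and 5.39 after 5-FU (log2 change -1.36 ± 0.23, adjusted p = 0.00192). In the first 2 of these 3 the libraries of a group lay close together. The remaining genes of largest fall belong to DNA replication, the histones and the tubulins.

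**Figure D2:**
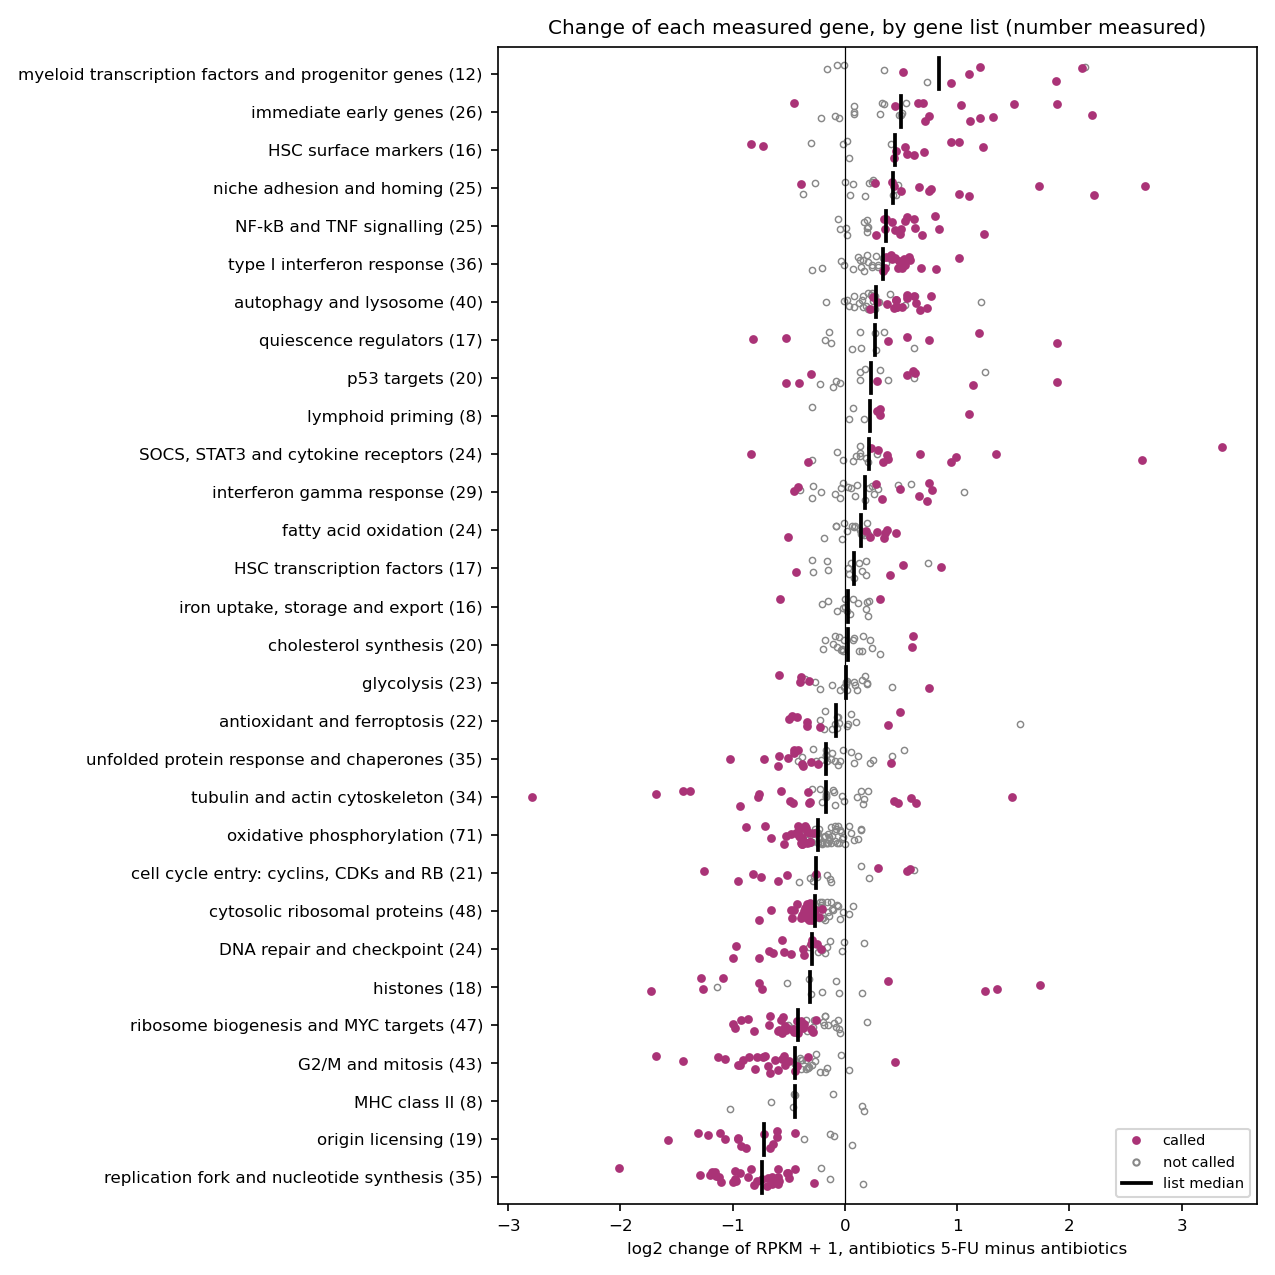
Log2 change of RPKM + 1 for each measured gene of 30 gene lists, antibiotics 5-FU minus antibiotics, with called genes filled, others open and the list median as a bar. Replication fork and origin licensing lists have the lowest medians, -0.74 and -0.73. The list of myeloid transcription factors and progenitor genes has the highest, 0.84, which is 0.15 with no filter.

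Genes that load the replicative helicase were lower after 5-FU. Of 19 measured genes of origin licensing, of 23 listed, 15 were lower and 0 higher. Lower genes made up 78.9% of the list and 16.5% of all genes tested. The median log2 change was -0.73, against -0.014 over all genes tested. Cdt1 (chromosome 8, 122568015 to 122573128), which brings the MCM helicase to origins, was at 17.0, 19.2 and 13.2 RPKM with antibiotics alone and 4.91, 4.31 and 5.26 after 5-FU (log2 change -1.57 ± 0.20, adjusted p = 4.53e-04). The helicase subunit Mcm7 was at 54.2, 56.6 and 46.8 RPKM with antibiotics alone and 20.5, 19.8 and 21.4 after 5-FU (log2 change -1.31 ± 0.11, adjusted p = 3.94e-05). For both genes the 3 libraries after 5-FU agreed closely and lay far under the lowest antibiotics library. Its partner subunits Mcm3 (log2 change -1.07 ± 0.14, adjusted p = 4.98e-04) and Mcm2 (log2 change -1.11 ± 0.16, adjusted p = 9.12e-04) fell by a like amount. The 4 genes of the list that were not called, named after their values were seen, were Orc2, Orc3, Orc4 and Cdc7, subunits of the origin recognition complex and the kinase that fires origins. In bulk samples, fewer cells in a state and less RNA per cell cannot be told apart.

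Genes of the replication fork and of nucleotide synthesis moved the same way. Of 35 measured of 40 listed, 32 were lower and 0 higher, with a median of -0.74. Lower genes made up 91.4%, against 16.5% of all genes tested. Tcf19 (chromosome 17, 35512734 to 35516824), a gene of late G1 and S phase, was at 9.10, 11.01 and 7.34 RPKM with antibiotics alone and 1.26, 1.77 and 1.47 after 5-FU (log2 change -2.01 ± 0.21, adjusted p = 1.33e-04). Uhrf1, which carries maintenance DNA methylation through replication, was at 12.4, 10.9 and 8.89 RPKM with antibiotics alone and 4.05, 3.56 and 3.67 after 5-FU (log2 change -1.29 ± 0.15, adjusted p = 3.29e-04). The clamp loader subunit Rfc2 had a smaller change with close replicates, 11.7, 11.8 and 10.4 RPKM with antibiotics alone and 6.68, 6.86 and 7.06 after 5-FU (log2 change -0.64 ± 0.07, adjusted p = 2.30e-04). The polymerase delta subunit Pold2 was at 16.5, 16.2 and 18.5 RPKM with antibiotics alone and 9.38, 9.06 and 9.88 after 5-FU (log2 change -0.79 ± 0.09, adjusted p = 3.39e-04). Many genes of DNA repair and the replication checkpoint are expressed by cells in S phase. Of 24 measured of 40 listed, 14 (58.3%) were lower and 0 higher, with a median of -0.30. The checkpoint kinase gene Chek1 was at 2.20, 2.23 and 1.47 RPKM with antibiotics alone and 0.486, 0.404 and 0.644 after 5-FU (log2 change -0.97 ± 0.14, adjusted p = 9.85e-04). It is near 1 RPKM, where counting error weighs most. The nuclease gene Exo1 (log2 change -0.68 ± 0.09, adjusted p = 4.97e-04) and the recombination gene Xrcc2 (log2 change -0.54 ± 0.09, adjusted p = 0.00174) also fell. The repair count was 6 lower on the TPM scale, 8 without antibiotics replicate 1, and 9 without antibiotics replicate 2 or without antibiotics 5-FU replicate 1.

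Promoters of these groups are shown where the letters of a known motif lie before the start site. The sequences are from RefSeq on GRCm38.p6 (mm10), written 5′ to 3′ on the strand of the gene, with matches in capitals. The E2F motif was searched as TTTGGCGC or TTTCGCGC on both strands, and it occurs in 0.813% of the 32851 RefSeq windows, which span 250 bases before to 50 after a start. Mcm6, a subunit of the MCM helicase (chr1:128359725-128359835, minus strand), was the licensing gene with the smallest p that held a match, and Dtl, an adaptor that marks Cdt1 for destruction (chr1:191575545-191575624, minus strand), was that of the replication fork list.
Mcm6: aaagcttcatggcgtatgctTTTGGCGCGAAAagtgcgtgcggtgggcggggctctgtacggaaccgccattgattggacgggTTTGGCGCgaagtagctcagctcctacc
Dtl: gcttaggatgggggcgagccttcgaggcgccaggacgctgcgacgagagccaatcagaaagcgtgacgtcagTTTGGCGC
The Mcm6 match that starts at position -110 from the start site is a pair of overlapping matches, and another starts at -47. The Dtl match starts at -8. Of the 31 replication fork genes with a window, 2 held the motif. Of the 19 licensing genes, 15 (78.9%) had a window, too few for a share. Mcm6 was at 28.4, 26.9 and 23.3 RPKM with antibiotics alone and 13.6, 13.2 and 13.1 after 5-FU (log2 change -0.93 ± 0.14, adjusted p = 9.50e-04). Dtl was at 4.89, 4.51 and 4.06 RPKM with antibiotics alone and 1.801, 1.75 and 1.84 after 5-FU (log2 change -0.97 ± 0.14, adjusted p = 8.52e-04). A match is a description of letters, not of binding.

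Genes of G2 phase and mitosis were lower too, less uniformly. Of 43 measured of 49 listed, 23 were lower and 1, the centromeric histone gene Cenpa, was higher (log2 change 0.44 ± 0.14, adjusted p = 0.0314). Cenpa, named after its values were seen, lost its call without any 1 of antibiotics replicates 1 and 3 and antibiotics 5-FU replicates 2 and 3. The median was -0.44, and 53.5% of the list was lower, against 16.5% of all genes tested. The tubulin genes Tuba1b (chromosome 15, 98931425 to 98934565) and Tubb4b (chromosome 2, 25222160 to 25224702) make subunits of microtubules and had the smallest p of the list. Tuba1b was at 652, 811 and 603 RPKM with antibiotics alone and 204, 215 and 216 after 5-FU (log2 change -1.69 ± 0.12, adjusted p = 1.98e-05), and Tubb4b at 279, 321 and 249 RPKM with antibiotics alone and 98.9, 102 and 108 after 5-FU (log2 change -1.44 ± 0.10, adjusted p = 1.49e-05). The libraries after 5-FU differed little from each other, and antibiotics replicate 2 was the highest of the 3 without 5-FU for both genes. Cks1b, a cofactor of cyclin-dependent kinases, was at 41.7, 49.8 and 41.6 RPKM with antibiotics alone and 17.7, 19.2 and 22.3 after 5-FU (log2 change -1.13 ± 0.16, adjusted p = 8.08e-04). Ran, the GTPase of nuclear transport and spindle assembly, was at 111, 124 and 102 RPKM with antibiotics alone and 58.7, 52.8 and 60.6 after 5-FU (log2 change -0.95 ± 0.15, adjusted p = 0.00118). Mki67, which encodes the proliferation marker Ki-67, was at 5.19, 4.85 and 2.85 RPKM with antibiotics alone and 1.99, 2.73 and 2.64 after 5-FU (log2 change -0.59 ± 0.18, adjusted p = 0.0303), and this call was lost in 8 of 16 alternatives. Without antibiotics replicate 2 the list had 15 lower genes, and antibiotics replicates 1 and 2 were the high ones for Mki67.

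The CHR motif, through which the DREAM complex acts on late cell cycle genes, was searched as TTTGAA or TTCGAA on both strands. It occurs in 19.2% of all windows and in 28 of the 37 G2 and mitosis genes that have a window (75.7%). Genes of this class are known for the motif, so the count describes the list. Tubb4b is the called member with the smallest p that holds it before the start (chr2:25224873-25224952, minus strand). Cdk1, the kinase that starts mitosis, is shown beside it as a well-known case chosen after its values were seen (chr10:69352913-69353003, minus strand).
Tubb4b: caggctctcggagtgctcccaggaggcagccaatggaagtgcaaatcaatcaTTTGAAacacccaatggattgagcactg
Cdk1: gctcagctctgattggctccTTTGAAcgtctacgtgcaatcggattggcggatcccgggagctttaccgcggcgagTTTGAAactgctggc
The Tubb4b match starts at position -198 and those of Cdk1 at -71 and -15. Cdk1 was at 5.92, 6.65 and 5.19 RPKM with antibiotics alone and 1.91, 2.75 and 3.34 after 5-FU (log2 change -0.93 ± 0.16, adjusted p = 0.00185), so it was lower in all 3 libraries after 5-FU.

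Regulators of cell cycle entry moved in both directions. Of 21 measured cyclins, CDKs and RB family genes of 30 listed, 7 were lower and 3 higher, with a median of -0.26. In shares this is 33.3% lower and 14.3% higher, against 16.5% and 13.7% of all genes tested. Ccnd2, the D-type cyclin of early G1, was at 18.6, 16.9 and 18.5 RPKM with antibiotics alone and 7.38, 6.98 and 6.46 after 5-FU (log2 change -1.26 ± 0.08, adjusted p = 1.32e-05). Its kinase gene Cdk4 was at 119, 133 and 115 RPKM with antibiotics alone and 83.3, 78.6 and 79.7 after 5-FU (log2 change -0.60 ± 0.09, adjusted p = 8.97e-04). Among genes of CDK inhibitors, Cdkn2d was higher (17.9, 16.8 and 20.7 RPKM with antibiotics alone and 24.8, 29.6 and 29.7 after 5-FU, log2 change 0.58 ± 0.09, adjusted p = 0.00130) and Cdkn2c lower (2.82, 2.68 and 2.01 RPKM with antibiotics alone and 0.785, 0.786 and 1.41 after 5-FU, log2 change -0.82 ± 0.17, adjusted p = 0.00557). Cdkn1a, the p21 gene and target of p53, was at 0.565, 0.575 and 0.524 RPKM with antibiotics alone and 2.41, 1.03 and 0.948 after 5-FU (log2 change 0.61 ± 0.43, adjusted p = 0.301). Its groups did not overlap, but replicate 1 after 5-FU was more than 2-fold above the other 2 and the test was not passed. The SE of that test also holds the spread of the libraries without antibiotics. The number lower was 3 without antibiotics replicate 2, and 4 without antibiotics replicate 1 or without antibiotics 5-FU replicate 1.

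Histone genes moved in both directions. Of 18 measured of 19 listed, 6 were lower and 4 higher, with a median of -0.31. Lower genes made up 33.3% and higher genes 22.2%, against 16.5% and 13.7% of all genes tested. The kit primes on poly(A) tails, which replication-dependent histone mRNAs mostly lack, so their values rest on the minority with a tail, and near-identical copies may share reads. The genes H1f0 and H3f3b make replacement histones, whose expression is not tied to DNA replication, and both were higher. H1f0 (chromosome 15, 79028212 to 79030498) was at 70.3, 66.1 and 86.2 RPKM with antibiotics alone and 181, 171 and 179 after 5-FU (log2 change 1.25 ± 0.10, adjusted p = 2.74e-05), and H3f3b at 187, 197 and 200.5 RPKM with antibiotics alone and 268, 245 and 249.8 after 5-FU (log2 change 0.38 ± 0.07, adjusted p = 0.00332). The linker histone gene Hist1h1c was also higher, at 7.61, 9.55 and 8.27 RPKM with antibiotics alone and 40.3, 26.9 and 26.3 after 5-FU (log2 change 1.74 ± 0.21, adjusted p = 3.98e-04), as was Hist1h2bc at 1.96, 2.28 and 1.86 RPKM with antibiotics alone and 8.71, 5.77 and 6.07 after 5-FU (log2 change 1.35 ± 0.27, adjusted p = 0.00415). Other histone genes were lower. Hist1h2ae was at 49.8, 133 and 34.3 RPKM with antibiotics alone and 14.5, 22.5 and 17.3 after 5-FU (log2 change -1.72 ± 0.41, adjusted p = 0.00953), Hist1h2ab, which is not on the list, at 14.9, 13.7 and 13.4 RPKM with antibiotics alone and 3.004, 5.13 and 5.06 after 5-FU (log2 change -1.50 ± 0.21, adjusted p = 7.07e-04), and Hist2h2ac at 14.9, 19.2 and 12.2 RPKM with antibiotics alone and 4.04, 5.72 and 7.76 after 5-FU (log2 change -1.28 ± 0.32, adjusted p = 0.0122). Antibiotics replicate 2 was high for Hist1h2ae, and without it the list had 2 lower genes and Hist2h2ac was not called. The list then still had 4 higher genes. The other lower genes were Hist1h1a and Hist1h1b, linker histones of S phase, and the variant genes H2afx and H2afz, all 4 named after their values were seen.

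Tubulin and actin genes moved in both directions. Of 34 measured of 38 listed, 13 were lower and 5 higher, with a median of -0.17. In shares this is 38.2% lower and 14.7% higher, against 16.5% and 13.7% of all genes tested. Tuba4a was at 86.5, 89.9 and 83.9 RPKM with antibiotics alone and 45.4, 44.7 and 44.7 after 5-FU (log2 change -0.93 ± 0.07, adjusted p = 2.52e-05), and Tubb5 at 139, 167 and 115 RPKM with antibiotics alone and 52.2, 53.9 and 51.6 after 5-FU (log2 change -1.38 ± 0.13, adjusted p = 8.63e-05). The libraries of Tuba4a differed by under 10% within each group. Higher genes numbered 3 without antibiotics 5-FU replicate 1 and 8 on the TPM scale.

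Many genes of ribosome production were lower. Of 47 measured genes of ribosome biogenesis and MYC targets, of 48 listed, 29 were lower and 0 higher, with a median of -0.42. Lower genes made up 61.7% of this list, against 16.5% of all genes tested. Nop56, a core protein of the particles that methylate ribosomal RNA, was at 49.1, 48.8 and 46.5 RPKM with antibiotics alone and 23.2, 24.4 and 23.3 after 5-FU (log2 change -0.99 ± 0.09, adjusted p = 8.66e-05). Its partner Nop58 was at 6.38, 5.34 and 5.76 RPKM with antibiotics alone and 3.21, 3.39 and 3.31 after 5-FU (log2 change -0.66 ± 0.08, adjusted p = 4.37e-04). Nop10 of the pseudouridylation complex was at 166, 168 and 172 RPKM with antibiotics alone and 104, 88.9 and 94.5 after 5-FU (log2 change -0.81 ± 0.10, adjusted p = 4.46e-04) and the maturation factor Ppan at 21.1, 18.7 and 19.5 RPKM with antibiotics alone and 11.6, 11.1 and 13.2 after 5-FU (log2 change -0.68 ± 0.08, adjusted p = 3.95e-04). Of 48 measured cytosolic ribosomal protein genes of 49 listed, 26 (54.2%) were lower and 0 higher, with a median of -0.26. Rplp1, a stalk protein, was at 242, 282 and 270.2 RPKM with antibiotics alone and 173, 158 and 170.4 after 5-FU (log2 change -0.66 ± 0.10, adjusted p = 9.99e-04), and Rpl38 at 12.1, 13.4 and 14.2 RPKM with antibiotics alone and 9.04, 9.35 and 9.25 after 5-FU (log2 change -0.48 ± 0.10, adjusted p = 0.00413). Rpl14 (log2 change -0.47 ± 0.10, adjusted p = 0.00452) and Rpl5 (log2 change -0.45 ± 0.08, adjusted p = 0.00255) also fell. The ribosomal protein count was sensitive: 8 were lower and 1 higher on the TPM scale, 12 lower without antibiotics replicate 2, 15 without antibiotics 5-FU replicate 2 and 16 without antibiotics 5-FU replicate 3. Ribosomal proteins have many processed pseudogenes that share their reads, so single values are uncertain.

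Some respiration genes were lower. Of 71 measured genes of oxidative phosphorylation of 73 listed, 25 were lower and 0 higher, with a median of -0.24. Called genes made up 35.2% of the list, all lower. Among all genes tested 30.2% were called and 16.5% were lower. Cytochrome c, Cycs, was at 19.8, 20.8 and 17.4 RPKM with antibiotics alone and 11.1, 8.88 and 10.1 after 5-FU (log2 change -0.88 ± 0.14, adjusted p = 0.00133). Ndufa4, a subunit of the respiratory chain, was at 31.4, 38.9 and 34.6 RPKM with antibiotics alone and 22.4, 19.9 and 20.6 after 5-FU (log2 change -0.71 ± 0.11, adjusted p = 0.00133), and the ATP synthase gene Atp5g1 at 11.7, 13.7 and 12.4 RPKM with antibiotics alone and 7.66, 6.99 and 8.09 after 5-FU (log2 change -0.66 ± 0.12, adjusted p = 0.00211). The complex I gene Ndufa12 also fell (log2 change -0.38 ± 0.09, adjusted p = 0.00753). The count was 7 lower and 3 higher on the TPM scale, 5 lower without antibiotics replicate 2, 6 without antibiotics 5-FU replicate 2, 9 without antibiotics 5-FU replicate 3 and 13 without antibiotics replicate 3. Of 23 measured glycolysis genes of 25 listed, 4 were lower and 1 higher (median 0.01). This is 21.7% called, under the 30.2% of all genes tested. Tpi1 (log2 change -0.59 ± 0.11, adjusted p = 0.00240), Pgam1 (log2 change -0.40 ± 0.08, adjusted p = 0.00492) and Ldhb (log2 change -0.39 ± 0.11, adjusted p = 0.0191) fell, and Pdk2, a kinase that inhibits pyruvate dehydrogenase, rose (3.29, 3.14 and 4.10 RPKM with antibiotics alone and 6.51, 7.34 and 5.92 after 5-FU, log2 change 0.75 ± 0.10, adjusted p = 7.20e-04). The glycolysis list had 2 lower and 5 higher genes on the TPM scale, and 2 lower without antibiotics replicate 3 or antibiotics 5-FU replicate 2 or 3. Ldhb lost its call in each of these and without antibiotics 5-FU replicate 1.

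In fatty acid oxidation more genes rose than fell. Of 24 measured genes of 33 listed, 7 were higher and 1 lower, with a median of 0.14. The list had 33.3% called, near the 30.2% of all genes tested, and 29.2% higher, against 13.7%. Cpt1a, the gate for fatty acids into mitochondria, was at 4.48, 4.77 and 4.51 RPKM with antibiotics alone and 6.15, 6.78 and 7.11 after 5-FU (log2 change 0.46 ± 0.10, adjusted p = 0.00695). The carnitine carrier Slc25a20 was at 2.45, 2.83 and 2.85 RPKM with antibiotics alone and 3.47, 3.80 and 4.12 after 5-FU (log2 change 0.37 ± 0.07, adjusted p = 0.00372), and the dehydrogenase gene Acadm at 3.72, 3.38 and 4.77 RPKM with antibiotics alone and 5.25, 5.40 and 5.15 after 5-FU (log2 change 0.35 ± 0.11, adjusted p = 0.0305). The call of Acadm was lost without any 1 of 5 libraries, all but antibiotics replicate 3, with adjusted p up to 0.122. Hsd17b10 was the 1 lower gene (log2 change -0.51 ± 0.10, adjusted p = 0.00322). The higher count was 14 on the TPM scale, 4 without antibiotics 5-FU replicate 1 and 2 without any of antibiotics replicates 1 and 2 and antibiotics 5-FU replicates 2 and 3. Cholesterol synthesis genes gave 2 higher and 0 lower of 20 measured of 28 listed (median 0.03): Hmgcs1 (log2 change 0.60 ± 0.10, adjusted p = 0.00136), an early enzyme of the pathway, and Insig1 (log2 change 0.61 ± 0.14, adjusted p = 0.00829), its feedback sensor. Srebf2 (log2 change 0.16 ± 0.09, adjusted p = 0.198) was not called. Of the cholesterol list 10% was called, under the 30.2% of all genes tested.

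Iron handling genes gave 1 higher and 1 lower of 16 measured of 28 listed (median 0.03). This is 12.5% called, under the 30.2% of all genes tested. Fth1, the heavy chain of the iron store ferritin, was at 463, 537 and 544 RPKM with antibiotics alone and 479, 468 and 438 after 5-FU (log2 change -0.15 ± 0.09, adjusted p = 0.208), and the groups overlapped. The iron exporter gene Slc40a1 was at 0.902, 2.45 and 1.09 RPKM with antibiotics alone and 1.45, 1.57 and 1.26 after 5-FU (log2 change 0.02 ± 0.24, adjusted p = 0.960). The transferrin receptor gene Tfrc did not pass the filter, at 0.515, 0.580 and 0.667 RPKM with antibiotics alone and 0.538, 0.821 and 0.809 after 5-FU. Pcbp1, an iron chaperone and RNA-binding protein, fell (90.9, 80.5 and 72.4 RPKM with antibiotics alone and 52.0, 51.4 and 57.9 after 5-FU, log2 change -0.58 ± 0.09, adjusted p = 0.00125), and Ireb2, which controls iron mRNAs, rose (1.12, 1.04 and 0.924 RPKM with antibiotics alone and 1.44, 1.49 and 1.63 after 5-FU, log2 change 0.31 ± 0.10, adjusted p = 0.0294). The call of Ireb2 was lost without any 1 of 5 libraries, all but antibiotics replicate 1. Fbxl5 (log2 change 0.20 ± 0.07, adjusted p = 0.0531) did not pass the test. Antioxidant and ferroptosis genes gave 2 higher and 6 lower of 22 measured of 28 listed, and their median of -0.075 turned to 0.082 on the TPM scale. Their share called was 36.4%, against 30.2% of all genes tested. The peroxiredoxin gene Prdx6 was at 55.5, 56.9 and 54.9 RPKM with antibiotics alone and 40.1, 39.8 and 40.2 after 5-FU (log2 change -0.47 ± 0.07, adjusted p = 9.66e-04). Txn2 (log2 change -0.43 ± 0.08, adjusted p = 0.00327) and Prdx1 (log2 change -0.50 ± 0.12, adjusted p = 0.00822) also fell, and Nfe2l2, the master regulator NRF2, rose (log2 change 0.49 ± 0.08, adjusted p = 0.00126). The number lower was 3 on the TPM scale and without antibiotics replicate 2, antibiotics 5-FU replicate 2 or antibiotics 5-FU replicate 3.

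Chaperone genes were lower in part. Of 35 measured genes of the unfolded protein response and chaperones of 37 listed, 12 were lower and 1 higher, with a median of -0.17. The share called was 37.1%, against 30.2% of all genes tested. The mitochondrial chaperonins Hspe1 (21.4, 21.7 and 20.05 RPKM with antibiotics alone and 12.9, 10.9 and 13.4 after 5-FU, log2 change -0.72 ± 0.13, adjusted p = 0.00282) and Hspd1 (25.6, 22.6 and 21.9 RPKM with antibiotics alone and 16.6, 13.6 and 15.1 after 5-FU, log2 change -0.60 ± 0.13, adjusted p = 0.00645) sit side by side on chromosome 1. Hsp90ab1 (log2 change -0.41 ± 0.08, adjusted p = 0.00295) and Tcp1 (log2 change -0.46 ± 0.10, adjusted p = 0.00737), a subunit of the cytosolic chaperonin, also fell. The number lower was 6 on the TPM scale, where Tcp1 was not called (nor Hsp90ab1 with quantile normalization), and 7 without antibiotics replicate 2 or antibiotics 5-FU replicate 2.

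Autophagy and lysosome genes were higher in part. Of 40 measured of 47 listed, 17 were higher and 0 lower, with a median of 0.28, and on the TPM scale 30 were higher. Higher genes made up 42.5% of the list and 13.7% of all genes tested. Sqstm1, the cargo receptor p62, was at 20.03, 21.1 and 25.4 RPKM with antibiotics alone and 36.8, 37.1 and 38.1 after 5-FU (log2 change 0.73 ± 0.09, adjusted p = 4.36e-04). Atg9a, which supplies membrane to the autophagosome, was at 4.70, 5.29 and 5.89 RPKM with antibiotics alone and 10.98, 8.74 and 9.48 after 5-FU (log2 change 0.77 ± 0.10, adjusted p = 6.21e-04). The lysosomal membrane gene Lamp2 was at 4.77, 4.45 and 4.75 RPKM with antibiotics alone and 7.74, 6.87 and 7.29 after 5-FU (log2 change 0.55 ± 0.08, adjusted p = 7.80e-04), and the cargo receptor Nbr1 at 3.93, 3.51 and 3.81 RPKM with antibiotics alone and 6.23, 6.72 and 6.19 after 5-FU (log2 change 0.64 ± 0.09, adjusted p = 9.86e-04). In all 4 genes every library after 5-FU lay above every library without it. They were picked by their small p, and the groups did not overlap in 49.9% of all genes tested.

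Genes of the HSC surface, which check the label of the cells, were mostly higher after 5-FU. Slamf1, Ly6a, Procr and Kit were detected in all 6 libraries. Of 16 measured of 20 listed, 9 were higher and 2 lower, with a median of 0.45. In shares this is 56.25% higher and 12.5% lower, against 13.7% and 16.5% of all genes tested. The list may hold genes used for the sort. Slamf1, the HSC marker CD150, was at 0.815, 0.872 and 1.21 RPKM with antibiotics alone and 2.57, 2.72 and 3.03 after 5-FU (log2 change 0.95 ± 0.09, adjusted p = 9.82e-05). Ly6a, the Sca-1 gene, was at 34.7, 45.3 and 59.3 RPKM with antibiotics alone and 119.9, 109.9 and 94.6 after 5-FU (log2 change 1.23 ± 0.16, adjusted p = 5.06e-04). Esam, an adhesion protein of HSCs and endothelium, was at 16.7, 15.3 and 19.4 RPKM with antibiotics alone and 40.9, 32.1 and 34.02 after 5-FU (log2 change 1.01 ± 0.16, adjusted p = 0.00113). Procr, the EPCR gene that marks HSCs, was at 15.9, 17.4 and 22.3 RPKM with antibiotics alone and 29.3, 31.6 and 31.1 after 5-FU (log2 change 0.71 ± 0.14, adjusted p = 0.00453). In these 4 genes the groups did not overlap, nor did they in 49.9% of all genes tested. All but Procr were picked by their small p. Kit was at 16.5, 13.3 and 16.3 RPKM with antibiotics alone and 13.5, 16.7 and 15.2 after 5-FU (log2 change -0.02 ± 0.10, adjusted p = 0.899).

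Of 17 measured HSC transcription factor genes of 26 listed, 4 (23.5%) were called, 3 higher and 1 lower, against 30.2% of all genes, with a median of 0.08. Hoxb5, a homeobox gene restricted to HSCs, was at 2.74, 2.42 and 3.23 RPKM with antibiotics alone and 5.08, 6.15 and 6.32 after 5-FU (log2 change 0.85 ± 0.10, adjusted p = 3.11e-04). Spi1, which encodes PU.1, was at 2.61, 2.58 and 3.07 RPKM with antibiotics alone and 4.28, 4.24 and 4.56 after 5-FU (log2 change 0.52 ± 0.09, adjusted p = 0.00255), and Gata2 at 25.5, 23.4 and 27.1 RPKM with antibiotics alone and 33.0, 33.8 and 34.8 after 5-FU (log2 change 0.41 ± 0.08, adjusted p = 0.00312). Gfi1b fell (10.3, 9.29 and 10.7 RPKM with antibiotics alone and 6.40, 7.04 and 8.29 after 5-FU, log2 change -0.43 ± 0.12, adjusted p = 0.0176), a call lost on the TPM scale, where 5 genes were higher, and without antibiotics replicate 3 or antibiotics 5-FU replicate 1 or 2. Hlf, an HSC-restricted factor, was at 7.70, 7.07 and 7.48 RPKM with antibiotics alone and 7.24, 7.82 and 7.73 after 5-FU (log2 change 0.03 ± 0.15, adjusted p = 0.898), and the groups overlapped. Mecom was under 1 RPKM in all 6 libraries and did not pass the filter, at 0.355, 0.312 and 0.376 with antibiotics alone and 0.504, 0.550 and 0.487 after 5-FU.

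Of 17 measured quiescence regulators of 23 listed, 5 were higher and 2 lower, with a median of 0.27. In shares this is 29.4% higher and 11.8% lower, against 13.7% and 16.5% of all genes tested. With no filter the median over 23 genes was 0.14. Btg2, an antiproliferative p53 target, was at 3.06, 1.38 and 2.83 RPKM with antibiotics alone and 10.1, 11.5 and 12.5 after 5-FU (log2 change 1.89 ± 0.25, adjusted p = 5.00e-04). Hes1, the Notch target, was at 0.170, 0.140 and 0.108 RPKM with antibiotics alone and 1.46, 1.10 and 2.41 after 5-FU (log2 change 1.19 ± 0.16, adjusted p = 4.98e-04). Without 5-FU it was close to 0 in all 3 libraries, so it passed the filter only through libraries after 5-FU. Tgfbr2, a receptor for the cytokine TGF-beta, was at 1.23, 1.12 and 1.27 RPKM with antibiotics alone and 1.99, 1.72 and 1.92 after 5-FU (log2 change 0.38 ± 0.07, adjusted p = 0.00253). Of 20 measured p53 target genes of 30 listed, 6 (30%) were higher and 3 (15%) lower (median 0.23). With no filter this median, over 30 genes, was 0.11. Trp53inp1 was at 2.65, 1.73 and 3.21 RPKM with antibiotics alone and 5.16, 7.95 and 7.16 after 5-FU (log2 change 1.14 ± 0.20, adjusted p = 0.00198), and Sesn1, a brake on mTORC1, at 1.90, 1.64 and 2.07 RPKM with antibiotics alone and 3.19, 3.82 and 3.29 after 5-FU (log2 change 0.63 ± 0.10, adjusted p = 0.00133). Trp53 itself was lower, at 24.5, 24.7 and 23.3 RPKM with antibiotics alone and 19.0, 18.5 and 16.6 after 5-FU (log2 change -0.41 ± 0.08, adjusted p = 0.00425). Without antibiotics 5-FU replicate 2 the p53 list had 5 higher genes and 1 lower.

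Cytokine signalling genes carried some of the largest rises. Of 24 measured genes of SOCS, STAT3 and cytokine receptors of 36 listed, 11 were higher and 2 lower, with a median of 0.22. Higher genes made up 45.8% and lower genes 8.33%, against 13.7% and 16.5% of all genes tested. Beside Socs3 and Il10ra, Csf2rb, the shared receptor chain for GM-CSF and interleukin 3, was at 2.03, 1.82 and 2.27 RPKM with antibiotics alone and 4.70, 4.85 and 5.53 after 5-FU (log2 change 0.99 ± 0.12, adjusted p = 4.08e-04). The higher count ran from 6 without antibiotics 5-FU replicate 2 to 14 on the TPM scale, and was 7 without antibiotics replicate 1, antibiotics replicate 2 or antibiotics 5-FU replicate 3. The STAT motif was searched as TTCNNNGAA, which reads the same on both strands, and 8.30% of all windows hold it. Socs3 is the called member with the smallest p that holds it before the RefSeq start used (chr11:117969492-117969571, minus strand). In the deposited table Socs3 spans 117966079 to 117970047. By that position the stretch lies inside the gene, not before its 5′ end.
Socs3: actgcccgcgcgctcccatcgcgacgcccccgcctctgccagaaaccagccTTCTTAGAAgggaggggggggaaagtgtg
The Socs3 match starts at position -154 from that RefSeq start. Of the 24 genes of this list, 17 (70.8%) had a window, too few for a share.

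NF-kB genes moved one way. Of 25 measured genes of NF-kB and TNF signalling of 32 listed, 16 were higher and 0 lower, with a median of 0.37. Higher genes made up 64% of the list and 13.7% of all genes tested. Nfkb1, the p50 subunit, was at 1.16, 1.24 and 1.32 RPKM with antibiotics alone and 2.33, 2.35 and 2.62 after 5-FU (log2 change 0.62 ± 0.07, adjusted p = 2.30e-04). The adaptor gene Myd88, through which Toll-like receptors reach NF-kB, was at 12.7, 12.5 and 15.0 RPKM with antibiotics alone and 20.9, 22.3 and 23 after 5-FU (log2 change 0.68 ± 0.09, adjusted p = 4.59e-04), and Tlr2, a receptor for bacterial lipoproteins, at 3.76, 4.02 and 4.29 RPKM with antibiotics alone and 6.14, 6.52 and 7.63 after 5-FU (log2 change 0.62 ± 0.09, adjusted p = 8.18e-04). The chemokine gene Ccl4 was at 4.16, 4.64 and 5.66 RPKM with antibiotics alone and 12.9, 14.3 and 10.9 after 5-FU (log2 change 1.24 ± 0.16, adjusted p = 4.42e-04). In these 4 genes, picked by their small p, the lowest library after 5-FU was above the highest library without it. Among all genes tested 49.9% had no overlap of the groups. Nfkbia encodes IkB-alpha, the inhibitor that NF-kB itself induces, and was at 25.4, 25.9 and 32.8 RPKM with antibiotics alone and 53.9, 55.1 and 43.4 after 5-FU (log2 change 0.84 ± 0.13, adjusted p = 0.00129). Its promoter (chr12:55492648-55492845, minus strand) is the one shown for the list, with the motif GGNNTTTCC or its reverse complement in capitals.
Nfkbia: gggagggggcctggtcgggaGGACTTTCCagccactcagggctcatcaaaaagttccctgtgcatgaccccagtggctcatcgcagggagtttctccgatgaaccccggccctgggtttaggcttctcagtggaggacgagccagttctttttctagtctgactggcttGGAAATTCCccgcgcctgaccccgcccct
The 2 matches start at positions -178 and -29. The motif is in 5.82% of all windows, and 19 of the 25 genes (76.0%) had a window, too few for a share.

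Immediate early genes, which rise within minutes of a stimulus and also during cell isolation, were higher in part. Of 26 measured of 37 listed, 12 were higher and 1 lower, with a median of 0.50. In shares this is 46.2% higher and 3.85% lower, against 13.7% and 16.5% of all genes tested. Junb, a subunit of AP-1, was at 57.6, 35.3 and 43.7 RPKM with antibiotics alone and 112, 101 and 101 after 5-FU (log2 change 1.21 ± 0.17, adjusted p = 6.93e-04), and Fosl2, another, at 0.227, 0.344 and 0.320 RPKM with antibiotics alone and 2.33, 1.78 and 1.41 after 5-FU (log2 change 1.12 ± 0.19, adjusted p = 0.00192). The labels give no times of cell isolation.

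Type I interferon genes were higher in part. Of 36 measured of 40 listed, 16 were higher and 0 lower, with a median of 0.34, and on the TPM scale 25 were higher. Higher genes made up 44.4% of this list and 13.7% of all genes tested. Rsad2, the antiviral enzyme viperin, was at 2.83, 2.42 and 2.505 RPKM with antibiotics alone and 5.55, 5.69 and 4.67 after 5-FU (log2 change 0.81 ± 0.09, adjusted p = 1.70e-04). Irf7, the regulator that amplifies the response, was at 10.1, 9.88 and 9.30 RPKM with antibiotics alone and 22.4, 24.1 and 16.4 after 5-FU (log2 change 1.02 ± 0.16, adjusted p = 0.00140), with replicate 3 lowest after 5-FU. The receptor gene Ifnar1 was at 3.59, 4.17 and 4.53 RPKM with antibiotics alone and 5.81, 7.10 and 6.28 after 5-FU (log2 change 0.54 ± 0.09, adjusted p = 0.00192), and Oas3, a sensor of double-stranded RNA, at 1.53, 1.42 and 1.55 RPKM with antibiotics alone and 3.22, 3.34 and 2.51 after 5-FU (log2 change 0.68 ± 0.12, adjusted p = 0.00205). Of 29 measured genes of the interferon gamma response of 33 listed, 7 were higher and 2 lower (median 0.18). The share called was 31.0%, close to the 30.2% of all genes tested. Higher genes made up 24.1% and lower genes 6.90%, against 13.7% and 16.5% of all genes. Both receptor chains rose: Ifngr1 was at 7.63, 8.06 and 8.77 RPKM with antibiotics alone and 15.2, 13.8 and 14.2 after 5-FU (log2 change 0.75 ± 0.09, adjusted p = 3.49e-04) and Ifngr2 at 1.42, 1.08 and 1.19 RPKM with antibiotics alone and 2.98, 2.62 and 2.499 after 5-FU (log2 change 0.73 ± 0.09, adjusted p = 4.90e-04). The immunoproteasome genes Psmb10 (log2 change -0.45 ± 0.09, adjusted p = 0.00307) and Psmb8 (log2 change -0.42 ± 0.08, adjusted p = 0.00333) fell, though Psmb8 was not called with quantile normalization. The interferon gamma list had 4 higher genes without antibiotics replicate 2, 4 without antibiotics 5-FU replicate 2 and 15 on the TPM scale.

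None of the 8 measured MHC class II genes, of 10 listed, was called (limma), 2 had an unadjusted p under 0.05, and their median was -0.45. These genes present peptides to helper T cells. H2-Aa was at 11.3, 13.2 and 18.4 RPKM with antibiotics alone and 5.89, 10.3 and 4.21 after 5-FU (log2 change -1.02 ± 0.39, adjusted p = 0.0683). Its groups did not overlap, and it was called without antibiotics 5-FU replicate 2. With array weights, 2 genes of the list were lower. H2-DMb1 (log2 change -0.45 ± 0.18, adjusted p = 0.0831), H2-Eb1 (log2 change -0.66 ± 0.32, adjusted p = 0.138) and H2-Ab1 (log2 change -0.45 ± 0.31, adjusted p = 0.290) overlapped between the groups.

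Some genes of adhesion and homing to the niche were higher. Of 25 measured of 32 listed, 12 were higher and 1 lower, with a median of 0.43. In shares this is 48% higher and 4% lower, against 13.7% and 16.5% of all genes tested. With no filter 13 of 32 were higher and 2 lower, with a median of 0.26. S1pr1, the receptor that guides exit into blood and lymph, was at 7.57, 7.38 and 9.70 RPKM with antibiotics alone and 38.0, 29.6 and 22.5 after 5-FU (log2 change 1.73 ± 0.19, adjusted p = 2.06e-04). The integrin beta chain gene Itgb2 was at 1.203, 1.07 and 1.35 RPKM with antibiotics alone and 2.99, 2.68 and 2.62 after 5-FU (log2 change 0.77 ± 0.07, adjusted p = 9.82e-05). Selp and Cd53, described above, belong to the list, and Angpt1, named after its values were seen, was the 1 lower gene, which was not called on the TPM scale or without antibiotics 5-FU replicate 1. S1pr1 spread widely after 5-FU, with replicate 1 highest, while Itgb2 varied little.

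Some genes of myeloid and of lymphoid progenitors were higher. Of 12 measured myeloid transcription factors and progenitor genes of 25 listed, 6 were higher and 0 lower, with a median of 0.84. Higher genes made up 50% of those measured and 13.7% of all genes tested. The filter can keep a low gene through the group where it is high. With no filter 25 myeloid genes were tested, with 7 higher, 0 lower and a median of 0.15. Cebpd, a factor induced by cytokines, was at 1.77, 0.724 and 0.580 RPKM with antibiotics alone and 7.96, 3.70 and 8.04 after 5-FU (log2 change 1.89 ± 0.28, adjusted p = 9.66e-04), with replicate 2 lowest after 5-FU. Plac8 was at 1.57, 1.77 and 2.19 RPKM with antibiotics alone and 5.38, 5.36 and 5.86 after 5-FU (log2 change 1.21 ± 0.17, adjusted p = 6.93e-04). Of 8 measured lymphoid priming genes of 25 listed, 4 (50%) were higher and 0 lower (median 0.22). Without antibiotics replicate 1 or antibiotics 5-FU replicate 2 the number higher was 2. With no filter the median of this list, over 24 genes, was 0.02. Bcl11a (log2 change 0.28 ± 0.07, adjusted p = 0.00903), Mef2c (log2 change 0.31 ± 0.09, adjusted p = 0.0199) and Gata3 (log2 change 0.32 ± 0.11, adjusted p = 0.0454) had small changes. Gata3 lost its call without any 1 of 5 libraries, all but antibiotics 5-FU replicate 1, and Mef2c without antibiotics replicate 1 or antibiotics 5-FU replicate 2.

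Markers of other marrow cells were measured as a check of the sort. Erythroid genes gave 4 higher (50%) and 1 lower (12.5%) of 8 measured of 16 listed, against 13.7% and 16.5% of all genes tested. The summed RPKM of the list was 170.6 to 180.7 with antibiotics and 263.9, 281.0 and 598.6 in the 3 libraries after 5-FU, so replicate 3 was high. The globin gene Hbb-bt was at 25.2, 40.8 and 37.7 RPKM with antibiotics alone and 132, 119.8 and 159 after 5-FU (log2 change 1.97 ± 0.40, adjusted p = 0.00455). Hba-a2 is an alpha globin gene, chosen after its values were seen, and was at 4.25, 4.58 and 0.908 RPKM with antibiotics alone and 6.99, 19.4 and 132 after 5-FU (log2 change 2.87 ± 1.19, adjusted p = 0.0884). Klf1 (0.889, 0.376 and 0.547 RPKM with antibiotics alone and 1.796, 1.89 and 2.89 after 5-FU, log2 change 0.99 ± 0.26, adjusted p = 0.0158) and Aqp1 (2.69, 2.48 and 2.93 RPKM with antibiotics alone and 8.87, 4.66 and 6.01 after 5-FU, log2 change 0.99 ± 0.28, adjusted p = 0.0205) also rose, and Car2 fell (128, 118 and 133 RPKM with antibiotics alone and 87.6, 96.7 and 80.9 after 5-FU, log2 change -0.51 ± 0.11, adjusted p = 0.00500). Without antibiotics replicate 2 the list had 1 higher gene, and without antibiotics 5-FU replicate 3 it had 2. Klf1 was not called in either of these, and Aqp1 not without antibiotics replicate 2 or antibiotics 5-FU replicate 1. With quantile normalization Car2 was not called. The part of these genes in the other results was not tested.

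Megakaryocyte and platelet genes gave 7 higher and 1 lower of 21 measured of 24 listed, with a median of 0.41. The share called was 38.1%, against 30.2% of all genes tested. Higher genes made up 33.3% and lower genes 4.76%, against 13.7% and 16.5% of all genes. The summed RPKM of the list was 225.3 to 247.0 with antibiotics and 266.5 to 291.5 after 5-FU. Gata1, the master regulator of the erythroid and megakaryocyte branches, was at 0.622, 0.478 and 0.560 RPKM with antibiotics alone and 3.04, 2.49 and 2.97 after 5-FU (log2 change 1.30 ± 0.19, adjusted p = 8.35e-04). Gp1ba, a platelet receptor subunit, was at 3.52, 4.46 and 4.31 RPKM with antibiotics alone and 11.5, 10.7 and 13.6 after 5-FU (log2 change 1.34 ± 0.21, adjusted p = 0.00129). Selp, also a platelet gene, belongs to this list. As background, HSCs that favour platelets express part of this list.

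Markers of mature myeloid cells were counted next. Of 8 measured neutrophil and monocyte markers of 21 listed, 1 was higher: Prtn3, a granule protease of early myeloid cells, was at 11.5, 16.2 and 15.2 RPKM with antibiotics alone and 24.7, 29.7 and 30.6 after 5-FU (log2 change 0.95 ± 0.21, adjusted p = 0.00694). S100a8 was at 6.12, 11.8 and 9.08 RPKM with antibiotics alone and 8.32, 9.44 and 23.6 after 5-FU (log2 change 0.46 ± 0.58, adjusted p = 0.578), with replicate 3 high after 5-FU, and S100a9 followed it (log2 change 0.31 ± 0.54, adjusted p = 0.703). Elane was at 0.102, 0.395 and 0.263 RPKM with antibiotics alone and 0.888, 1.17 and 1.17 after 5-FU (log2 change 0.73 ± 0.77, adjusted p = 0.504). The summed RPKM of the list was 114.6 to 145.5 with antibiotics and 142.7 to 168.5 after 5-FU. Of the 8 measured, 12.5% were higher, close to the 13.7% of all genes tested. Macrophage markers gave 2 higher (28.6%) and 1 lower (14.3%) of 7 measured of 15 listed, with sums of 12.3 to 38.8 and 28.2 to 33.9. Cd68 (log2 change 1.07 ± 0.33, adjusted p = 0.0315) and Spic (log2 change 0.49 ± 0.16, adjusted p = 0.0399) were higher and Axl (log2 change -0.55 ± 0.14, adjusted p = 0.0141) lower, and C1qb was at 1.27, 5.51 and 2.25 RPKM with antibiotics alone and 0.691, 2.35 and 2.30 after 5-FU (log2 change -0.45 ± 0.46, adjusted p = 0.486). Each of the first 2 calls was lost without any 1 of 5 libraries, all but antibiotics replicate 3 for Cd68 and all but antibiotics replicate 2 for Spic, and Axl was lost without antibiotics 5-FU replicate 1.

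**Figure D3:**
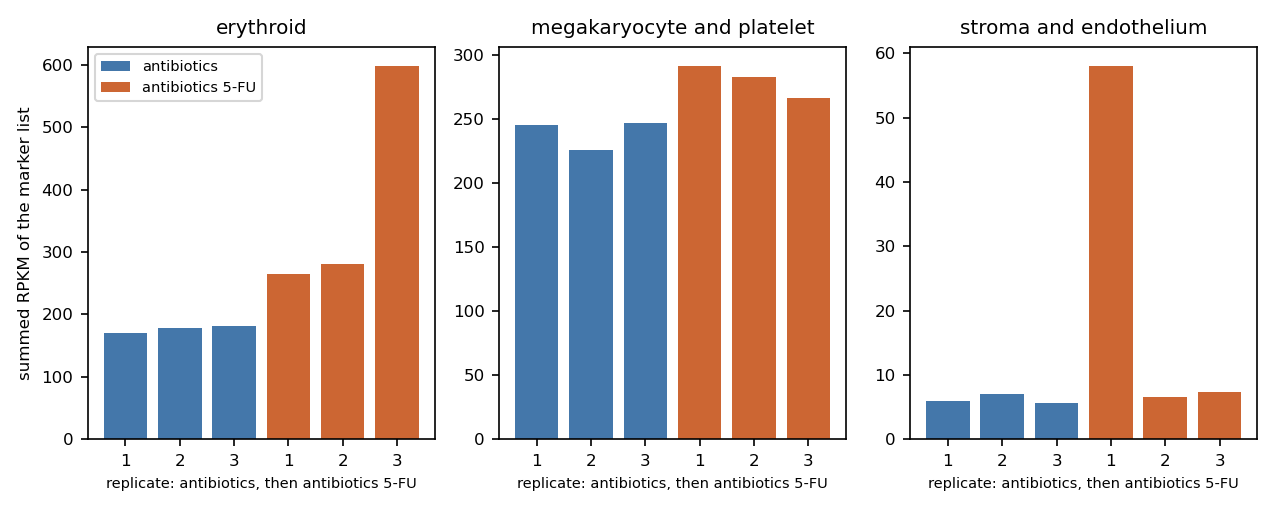
Summed RPKM of 3 marker lists in each library, with antibiotics in blue and antibiotics 5-FU in orange. Antibiotics 5-FU replicate 3 is high for erythroid genes at 598.6 RPKM, replicate 1 is high for stroma and endothelium at 58.1 RPKM, and the platelet list differs by less.

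B cell genes were nearly absent. Of 13 listed, 11 were under 1 RPKM in all 6 libraries, and Ms4a1, Pax5 and Fcmr were at 0. Cd79b was at 12.0, 14.4 and 15.0 RPKM with antibiotics alone and 11.1, 12.8 and 10.1 after 5-FU (log2 change -0.26 ± 0.13, adjusted p = 0.137). Of 16 T and NK cell genes, 9 were at 0 in all 6 libraries, among them Cd3e, Cd3g and Cd8a, and 14 were under 1 RPKM in all 6. Klrb1c, described above, was the 1 higher gene of the list. Nkg7 was at 23.4, 24.9 and 27.0 RPKM with antibiotics alone and 25.7, 28.8 and 31.4 after 5-FU (log2 change 0.18 ± 0.18, adjusted p = 0.468) and makes up most of the list's sum of 24.4 to 28.2 with antibiotics and 32.1 to 38.1 after 5-FU. Dendritic cell markers summed to 18.9 to 20.9 and 14.7 to 20.5, and basophil and mast cell markers to 36.9 to 43.9 and 46.7 to 50.8, most of it from Gata2. Bst2 (log2 change -0.29 ± 0.17, adjusted p = 0.226) and Flt3 (log2 change 0.03 ± 0.11, adjusted p = 0.843) were not called. Stroma and endothelium genes summed to 5.68 to 7.03 with antibiotics and to 58.1, 6.60 and 7.31 after 5-FU. The endothelial gene Pecam1, which HSCs express too, was higher (0.440, 0.581 and 0.622 RPKM with antibiotics alone and 1.85, 1.37 and 1.16 after 5-FU, log2 change 0.66 ± 0.13, adjusted p = 0.00372). Bgn (log2 change 0.27 ± 0.21, adjusted p = 0.361) and Col1a2 (log2 change 0.26 ± 0.30, adjusted p = 0.539) were high in replicate 1 and not called. Without that library 2007 genes were called, 905 higher and 1102 lower, and 1922 of them were among the 2586.

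The change was then set beside the change after 5-FU in mice without antibiotics, which rests on other libraries. There 1846 genes (21.6%) were called, 9.74% higher and 11.8% lower. Of the 2586 genes called with antibiotics, 2479 (95.9%) had the same sign without them, and 1288 were called in both, 1286 of them in the same direction. The shared calls in the same direction are 49.7% of the calls with antibiotics and 69.7% of those without. A gene called in 1 setting only is not shown to differ, and the difference of the 2 changes was tested gene by gene. Pearson's r between the 2 changes was 0.788 across 8553 genes, which are not independent replicates.

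**Figure D4:**
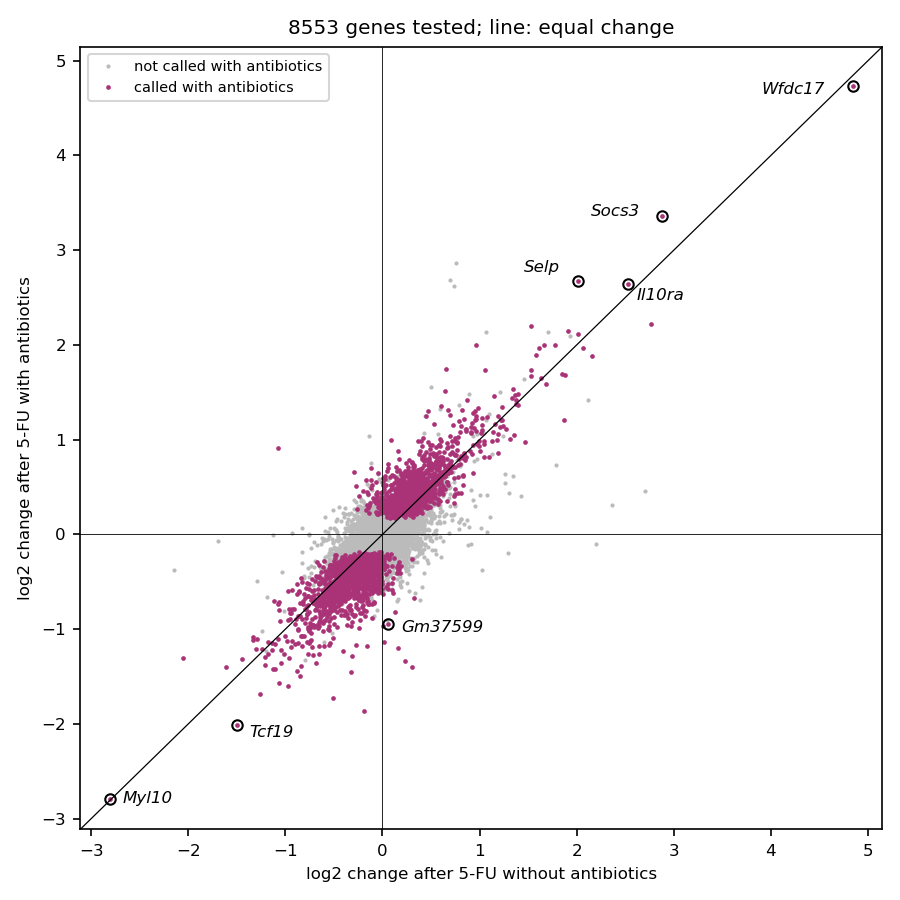
Log2 change after 5-FU without antibiotics (x axis) and with antibiotics (y axis) for 8553 genes, with genes called with antibiotics in purple and equal change as a line. Most genes lie along the line, and Gm37599, the 1 gene called by the test of the difference, lies below it at -0.94 with and 0.06 without antibiotics.

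By this test of the interaction, 1 gene (0.0117%) was called and 710 had an unadjusted p under 0.05 (limma). Gm37599 (chromosome 1, 141356789 to 141357277), an unproven transcript of the TEC class, was at 3.71, 3.72 and 3.25 RPKM with antibiotics alone and 1.48, 1.27 and 1.35 after 5-FU (log2 change -0.94 ± 0.08, adjusted p = 3.71e-05). Without antibiotics its mean ± SD went from 3.11 ± 0.321 to 3.28 ± 0.209 RPKM (n = 3, log2 change 0.06 ± 0.08). The difference between the 2 changes was -1.004 ± 0.11 (adjusted p = 0.0134). The call was lost without any 1 of 7 libraries, with adjusted p from 0.061 to 0.0791, among them antibiotics replicates 1 and 2 and antibiotics 5-FU replicates 2 and 3. It was also lost with the i7 index as a block (adjusted p = 0.111). The gene was chosen after its values were seen, since predicted genes are outside the naming rule.

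The genes next in p for the interaction were not called. H1f0 rose with antibiotics as given above and changed by 0.45 ± 0.10 without them (difference 0.80 ± 0.14, adjusted p = 0.361). This difference was called when antibiotics replicate 3 was left out (adjusted p = 0.0316). Zfp513, a zinc finger gene, was at 3.75, 3.56 and 3.97 RPKM with antibiotics alone and 7.10, 5.70 and 5.60 after 5-FU with a change of -0.17 ± 0.09 without antibiotics (difference 0.75 ± 0.12, adjusted p = 0.272). Serpinf1 fell in both settings, by a log2 change of -1.30 ± 0.10 with and -2.05 ± 0.10 without antibiotics (difference 0.75 ± 0.14, adjusted p = 0.374). Actg1, cytoplasmic gamma actin, was at 591, 606 and 612 RPKM with antibiotics alone and 428, 385 and 402 after 5-FU, with -0.07 ± 0.08 without antibiotics (difference -0.51 ± 0.11, adjusted p = 0.5002). Sssca1, Syncrip, Tomm34 and Ccdc28b had differences of -0.50 ± 0.10, -0.49 ± 0.11, -0.37 ± 0.09 and 0.39 ± 0.09, none of them called.

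For type I interferon genes the 2 changes were set side by side. With antibiotics 16 of 36 genes were higher and without them 6, with medians of 0.34 and 0.05. The change with antibiotics was the more positive in 35 of the 36 genes. Over all 8553 genes the change was the more positive with antibiotics in 46.5%, with medians of -0.014 and 0.0045. No gene of the list passed the interaction test (limma, smallest adjusted p = 0.505), and 9 had an unadjusted p under 0.05. Irf7 changed by 1.02 ± 0.16 with and 0.42 ± 0.16 without antibiotics (difference 0.60 ± 0.23). Rsad2 changed by 0.81 ± 0.09 and 0.41 ± 0.09 (difference 0.41 ± 0.12). The genes share libraries and respond to the same signals, so their number is no measure of certainty.

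**Figure D5:**
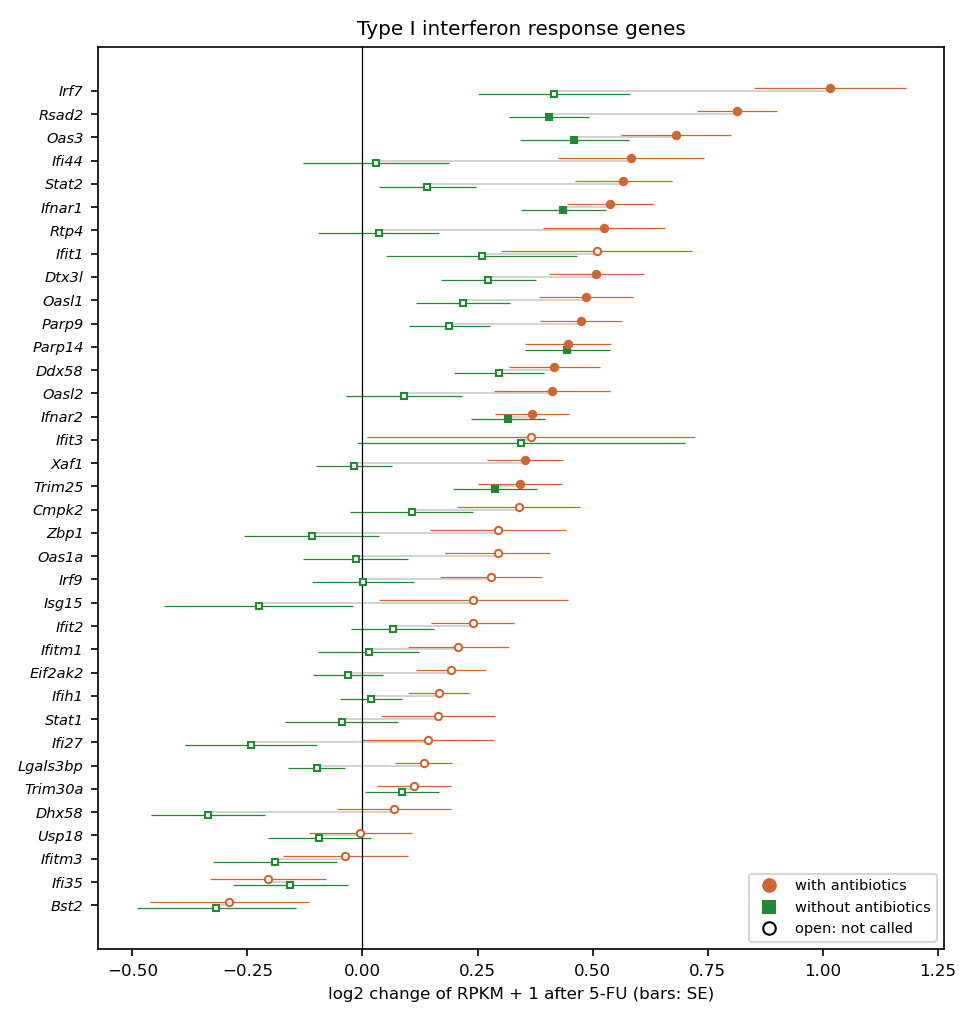
Log2 change after 5-FU of 36 type I interferon response genes, with antibiotics as circles and without them as squares, with bars for the SE and filled symbols for called genes. Circles lie to the right of squares in 35 of the 36 genes, by 0.60 for Irf7.

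Counts of higher and then lower genes were set side by side for other lists. Over all genes tested 13.7% were higher and 16.5% lower with antibiotics, and 9.74% and 11.8% without. Origin licensing had 0 and 15 in both settings, and replication fork genes had 0 and 32 with and 0 and 28 without antibiotics. Ribosome biogenesis had 0 and 29 with and 0 and 18 without, while ribosomal proteins had 0 and 26 with and 0 and 35 without. Fatty acid oxidation had 7 and 1 with and 0 and 3 without. Of its 24 genes 21 were the more positive with antibiotics, as were 46.5% of all genes. Its 7 higher calls fell to 2 when some single libraries were left out, as given above. Interferon gamma genes had 7 and 2 with and 3 and 6 without. NF-kB genes had 16 and 0 with and 12 and 0 without. Megakaryocyte and platelet genes had 7 and 1 with and 13 and 2 without, and neutrophil and monocyte genes 1 and 0 with and 3 and 0 without. In the latter list S100a8 changed by 0.46 ± 0.58 with and 2.70 ± 0.58 without antibiotics (difference -2.24 ± 0.81, adjusted p = 0.571). No member of any of the 39 lists passed the interaction test (limma), so no difference in these counts rests on a gene whose changes were shown to differ.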

How the data were processed

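RNA-seq measured sorted HSCs in 12 libraries, 3 per group, numbered here in accession order. Per the labels' protocols, RNA came from an RNeasy Plus Micro kit and was amplified by a poly(A)-primed kit, SMART-Seq v4, before Nextera XT. Per the submitters' processing notes, STAR 2.5.3a, Partek and mm10 were used. The authors deposited RPKM per gene for 46986 features, in which 0.0001 stands for 0. Whole reads could not be recovered from the low values, so no count model was run.

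Genes of at least 1 RPKM in at least 3 of the 12 libraries were kept (8553). A model with 4 group means was fitted to log2(RPKM + 1) of all 12 libraries with limma 3.58.1 (R 4.3.3), with an intensity trend, 8 residual degrees of freedom and Benjamini-Hochberg adjustment over the genes tested. It gave 5-FU against none with antibiotics, the same without antibiotics, and the difference of the 2 changes (the interaction). Each SE pools the spread within all 4 groups, those without antibiotics included. A gene is called at an adjusted p under 0.05. An exact permutation test of 3 against 3 cannot go below p = 0.1 and was not run. The script was also tested on simulated data.

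Up to 14 called genes per direction were named by size of change (group means reaching 5 RPKM, no overlap, no predicted genes or pseudogenes). The 4 measured members of smallest p of each of 39 gene lists, 8 genes of general interest (Cdkn1a, Fth1, Hlf, Mecom, Mki67, Procr, Slc40a1 and Tfrc), and the genes of smallest p for the interaction were also named. Other named genes were chosen after their values were seen: Gm37599, Cdk1, Cenpa, Hba-a2, Angpt1, the uncalled licensing genes, 4 histone genes and markers at 0. The members and lists were chosen with earlier results of these data known. Promoter windows were matched by symbol for 5659 of the 8553 genes. The start used was the RefSeq start nearest to the 5′ end in the deposited table, which can lie elsewhere. Some genes are not reported here. Gene positions are those of the deposited table. Alternatives changed the pseudocount, the filter, the scale, the gene set, the model and each library in turn. Rescaling each library to the mean total was added after the data were seen.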

Additional observations from a re-analysis of the deposited data

Results flagged for a closer look

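The change after 5-FU of Gm37599 differed between mice with and without antibiotics in the test of the difference itself. The difference of the log2 changes was -1.004 (limma, adjusted p = 0.0134). All 3 libraries after 5-FU with antibiotics lay under all 3 with antibiotics alone, and the call was lost without any 1 of 7 of the 12 libraries.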

How the results depend on the processing

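No paired analysis was possible because the labels carry no replicate numbers that tie libraries with 5-FU to libraries without it. Each i7 index is shared by 1 library with and 1 without antibiotics, so it could serve as a block for the interaction alone. The 2586 genes called (1175 higher, 1411 lower) became 1279 (424 and 855) at a mean of at least 5 RPKM, where fewer genes were tested. Higher and lower calls numbered 2137 and 746 as TPM, and 2125 and 741 after rescaling to the mean total. With 1 of the 6 libraries left out, calls ran from 1624 to 2451, higher calls from 714 to 1141 and lower calls from 898 to 1310. The 1 interaction call became 7 with no filter and 0 at a mean of at least 5 RPKM, without predicted genes and pseudogenes, or with the i7 index as a block, and ran from 0 to 3 with 1 library left out. The median of antioxidant and ferroptosis genes turned to 0.082 (TPM) and 0.056 (rescaled). Of 136 named genes called, 118 kept the call in every alternative run that tested them, and 0 reversed. Most named genes were chosen for a small p or a large change, so this count does not speak for all calls. Without antibiotics replicate 2, 61.4% of the 2586 calls were kept. Except where a construction is named, the cause was not tested. Values near 1 RPKM rest on few reads, and the added 1 understates their changes.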

Other observations

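The features tested differed by class. Of 7212 protein-coding genes, 1070 were higher and 1133 lower after 5-FU with antibiotics, with a median log2 change of 0.0038. Of 866 processed pseudogenes, 44 were higher and 211 lower, with a median of -0.18. Reads of a pseudogene cannot be told apart from those of its parent gene where the sequences are near-identical. Of 100 lincRNA genes, 19 were higher and 6 lower (median 0.085), and of 84 antisense genes 11 were higher and 7 lower (median 0.034). How the counting treated strand is not given in the sources used here.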
